A study of Mus musculus with 3 samples.

Results

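Among 40492 cells kept from 3 single-cell libraries of healing mouse skin, 358 were selected as Ccr7 mature migratory dendritic cells, here called Ccr7 dendritic cells. They comprised 39 of 4452, 253 of 21568 and 66 of 14472 cells on Days 3, 7 and 14 after wounding. The cells were chosen by their own transcripts, counted as unique molecular identifiers (UMIs, 1 per captured RNA molecule). Each had at least 500 UMIs, at least 200 genes, at most 10% mitochondrial UMIs, at least 1 UMI of Ccr7, at least 3 UMIs of Ccl22 and Fscn1 together, no UMI of Cd3d, Cd3e or Cd3g, and under 0.5% of its UMIs from Dcn and Col1a2. A reference set of 606 cells under the same quality, Cd3 and Dcn plus Col1a2 limits had at least 2 UMIs of Cd209a and none of Ccr7, with 67 cells on Day 3, 253 on Day 7 and 286 on Day 14, here called Cd209a cells.

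The study followed the cell populations of dorsal skin wounds over the course of repair. Full-thickness punch wounds were made in C57BL/6J male mice of 7 to 12 weeks, with no genetic change or treatment named in the labels, and tissue was taken at 3, 7 or 14 days. Wound samples were pooled before dissociation, and unsorted cells of each day gave 1 library, so that no library had a replicate and animals could not be told apart. Intervals below are 95% intervals for counting error only, and none covers the spread between mice. Those of levels and of their ratios treat the UMIs summed over a set as independent. They do not cover the spread between cells either, and can be too narrow where a few cells hold many of the UMIs. No difference between days or between sets of cells was given a p-value.

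Dendritic cells take up antigen in tissue and present it to T cells in the draining lymph node. When they mature they gain the receptor CCR7, which guides them along gradients of CCL19 and CCL21 into lymphatic vessels, reshape their actin with the bundling protein fascin (Fscn1), release chemokines such as CCL22 that attract T cells, and give up much of their machinery for uptake. Both conventional lineages, the cross-presenting type 1 cells marked by Xcr1 and Clec9a and the type 2 cells that in skin often carry Cd209a, can enter this state, which is driven in part by NF-kappaB transcription factors and joins costimulatory with inhibitory ligands.

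The libraries held between 5158 and 22924 barcodes and between 38133650 and 120940799 UMIs, and 19 to 111 barcode sequences occurred in both libraries of a pair, with no barcode that was a Ccr7 dendritic cell in both. The Ccr7 dendritic cells had median UMIs of 5247, 3129 and 4448 on Days 3, 7 and 14, against 7722, 3372 and 4878.5 in the Cd209a cells. Their median mitochondrial share was 4.01%, 2.15% and 1.55%. A simulation of doublets called 0, 22 and 1 of them on Days 3, 7 and 14, beside 2.07%, 9.17% and 6.65% of all kept cells. The shares of all kept cells were set in advance from the number of barcodes and are not measured doublet rates.

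Ccr7 dendritic cells made up 0.876% (0.624 to 1.20), 1.17% (1.03 to 1.33) and 0.456% (0.353 to 0.580) of kept cells on Days 3, 7 and 14. The Day 14 share was lower than the Day 7 share by more than counting error, with a log2 ratio of -1.36 (-1.78 to -0.97), whereas the interval of Day 7 over Day 3 included 0, at 0.42 (-0.07 to 0.95). The Cd209a cells took the opposite order at the last time, with 1.5%, 1.17% and 1.98%. There were thus 0.582 Ccr7 dendritic cells per Cd209a cell on Day 3, 1 on Day 7 and 0.231 on Day 14, and of the 112, 540 and 391 cells of the Ccr7, Cd209a and Xcr1/Clec9a sets together they made up 34.8%, 46.9% and 16.9%. A share of kept cells moves with every other population captured, and a change in number could not be told apart from a change in the rest of the wound. Both sets were also chosen by counts of UMIs, so their shares can move with depth. All kept cells had median UMIs of 3600.5, 3518 and 6291 on Days 3, 7 and 14, and the part of depth in the shares was not tested.

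**Figure D1:**
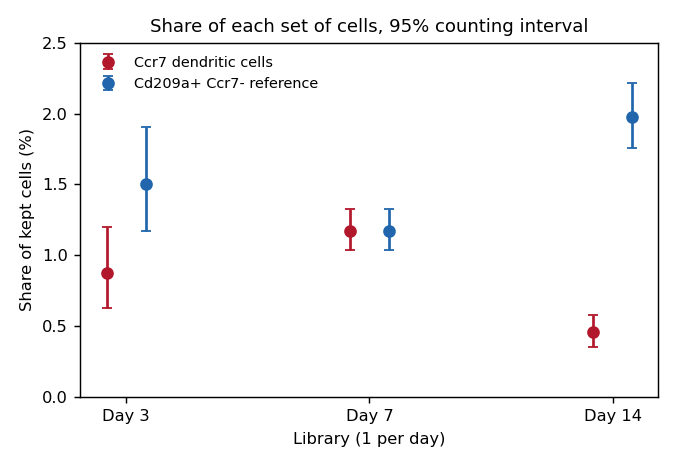
Share of kept cells (%, vertical axis) formed by the Ccr7 dendritic cells (red) and the Cd209a cells (blue) in the library of each day, with 95% Clopper-Pearson intervals as bars. The red points lie at 0.876, 1.17 and 0.456% and the blue points at 1.5, 1.17 and 1.98%, so that the sets meet on Day 7 and lie farthest apart on Day 14.

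The 3 genes that chose the cells are given as a description. Levels are a gene's UMIs per 1000000 UMIs of a set of cells in a library (CPM). In the order of Days 3, 7 and 14, Ccr7 stood at 4823, 2107 and 2821 CPM, with a median of 22, 5 and 12 UMIs per cell. Ccl22, the ligand of CCR4, stood at 2874, 2333 and 1422 CPM, and Fscn1 at 1673, 1920 and 2257 CPM. Some selected cells had no UMI of Ccl22 (6, 21 and 17 cells) and others none of Fscn1 (11, 48 and 5 cells).

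The limits fell at different points of the distribution. Of cells with Ccr7 (151, 671 and 237), those that also had 3 UMIs of Ccl22 and Fscn1 numbered 47, 304 and 81, and 0, 2 and 0 of these were dropped for Cd3 UMIs and 8, 49 and 15 for Dcn and Col1a2. Just inside the limit lay 3, 25 and 5 cells with exactly 3 UMIs of Ccl22 and Fscn1, in which Cd74, the invariant chain of MHC class II, was at 14330, 8646 and 15135 CPM. Just outside lay 3, 12 and 4 cells with 2 such UMIs and Cd74 at 23103, 7366 and 16997 CPM. Cells with 3 or more UMIs of Ccl22 and Fscn1 but no Ccr7 (12, 129 and 94) held only 501, 950 and 978 CPM of Cd74, and Flt3, a dendritic cell growth factor receptor, was at 0, 9.51 and 0.968 CPM in them. Selected cells with exactly 1 Ccr7 UMI (2, 32 and 2) had 5011, 6851 and 7518 CPM. Cells without Ccr7 thus had less Cd74 than cells on either side of the Ccl22 and Fscn1 limit.

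The label was checked against genes the rule did not name. Flt3 was at 449, 224 and 131 CPM on Days 3, 7 and 14 in the Ccr7 dendritic cells and at 204, 122 and 49.6 CPM in the Cd209a cells. Zbtb46, a transcription factor of conventional dendritic cells, was at 120, 68.6 and 108 CPM against 11.8, 25.5 and 26.2 CPM. Of 9 B cell markers 6 had no UMI in any library, and the summed T and innate lymphoid list, which holds no Cd3 gene, gave 26.7, 77.9 and 26.2 CPM. Macrophage, fibroblast and keratinocyte markers were found, most of all on Day 7 with 2933, 2898 and 760 CPM, and are given further on. The dendritic cell identity list had 12 ranked genes, of which 4 (Zbtb46, Id2, Irf8, Batf3) were at least 2-fold higher in all 3 libraries and 3 (Bcl11a, Kmo, Ptprc) at least 2-fold lower. Irf8 and Batf3, which drive the type 1 lineage, reached log2 ratios of 2.85, 1.04 and 3.35 and of 2.01, 1.86 and 1.84. The other ranked genes of the type 1 list, Wdfy4, Naaa and Ppt1, were at least 2-fold lower, as given further on.

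Across all genes, 3116 had enough UMIs to be ranked (at least 50 CPM in either set and at least 10 UMIs in both sets together in each library). Of these, 265 (8.5%) were at least 2-fold higher in the Ccr7 dendritic cells in all 3 libraries and 329 (10.6%) at least 2-fold lower, and the median log2 ratio over all ranked genes, averaged over libraries, was -0.18. Because the sets were chosen on genes of this same contrast, the counts below describe the cells and support no claim about the lists. Without cells that carried UMIs of macrophages, B cells, neutrophils or keratinocytes the counts were 266 higher and 346 lower. The larger number of lower genes depended on the scaling: with totals taken without the 50 most abundant genes there were 293 higher and 289 lower, and with the median of ratios 274 and 296.

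The maturation programme is a list of genes known from mature dendritic cells, and it was chosen with earlier results of these data known. Of its 32 ranked genes 30 were at least 2-fold higher and 0 lower, with a median log2 ratio of 3.51, and only Birc3 and Epsti1 did not reach 2-fold in every library. Socs2, a feedback inhibitor of cytokine signalling, was at 538, 456 and 387 CPM on Days 3, 7 and 14 against 1.96, 9.56 and 8.27 CPM in the Cd209a cells, with log2 ratios of 8.10, 5.58 and 5.55. Il4i1, a secreted amino acid oxidase that restrains T cells, was at 1210, 869 and 563 CPM against 13.7, 10.6 and 13.1 CPM. Cacnb3, a calcium channel subunit, was at 365, 408 and 334 CPM and had no UMI in the Cd209a cells of Days 3 and 7, where its log2 ratio was at least 5.95 and 7.00. For these genes the counting intervals of the sets did not overlap in any library.

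Other genes among the 10 highest by the smallest of the 3 ratios are given next. Serpinb6b was at 498, 412 and 871 CPM against 3.93, 1.06 and 4.83 CPM. Serpinb9, an inhibitor of granzyme B, was at 360, 387 and 721 CPM against 3.93, 9.56 and 12.4 CPM, and Eno3, an enolase, at 205, 127 and 220 CPM against 1.96, 3.19 and 1.38 CPM. H2-Eb2, an MHC class II beta chain gene, was at 285, 151 and 278 CPM with a total of 1 UMI in the Cd209a cells of all days, and Mreg, a gene of organelle transport, was at 271, 105 and 177 CPM with likewise 1 UMI. Fabp5, a fatty acid binding protein of the maturation list that was not among the 10, was at 3568, 8318 and 2519 CPM against 49.1, 344 and 239 CPM. Each of these genes was higher in the Ccr7 dendritic cells of every library by more than counting error. Serpinb6b, Serpinb9, H2-Eb2 and, among genes named further on, H2-Q7 and Bcl2a1b have close paralogues, between which reads of the 3′ end could have been divided.

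The same ranking gave the genes with the lowest ratios. Gpr141, an orphan receptor gene, was at 4.45, 3.49 and 3.28 CPM on Days 3, 7 and 14 against 118, 74.3 and 75.2 CPM. Alox5ap, the activating protein of leukotriene synthesis, was at 66.7, 67.4 and 9.83 CPM against 882, 532 and 744 CPM, and Cysltr1, a leukotriene receptor gene, at 4.45, 14.0 and 3.28 CPM against 216, 107 and 56.5 CPM. Naaa, a lysosomal amidase, was at 22.2, 36.0 and 3.28 CPM against 471, 298 and 384 CPM. Zfp36l2, an RNA-binding protein that promotes mRNA decay, was at 174, 127 and 85.2 CPM against 1693, 1021 and 725 CPM. Ckb, brain creatine kinase, was at 17.8, 18.6 and 9.83 CPM against 298, 167 and 110 CPM. Iqgap2 and Ly6c2, with mean log2 ratios of -3.83 and -3.80, Tep1, at 0, 15.1 and 3.28 CPM against 108, 125 and 143 CPM, and Ccr2, described with the receptors, completed the 10. For a gene without a UMI in a set, the set was taken at 3 counts, in these ratios and in the list medians.

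Measured cell by cell, the maturation list without rule genes made up a median of 3.43%, 3.26% and 4.31% of a Ccr7 dendritic cell's UMIs on Days 3, 7 and 14, against 0.531%, 0.427% and 0.514% in the Cd209a cells. The median cell had UMIs of 23, 20 and 25 of the 34 genes, against 11, 6 and 7. Of the Ccr7 dendritic cells, 37 of 39, 218 of 253 and 65 of 66 lay above every Cd209a cell of their library. Antigen uptake genes ran the other way, with medians of 0.102%, 0.135% and 0.0987% against 0.657%, 0.541% and 1.20%. The Ccr7 dendritic cells and the Cd209a cells were nearly apart on the maturation axis and overlapped on the uptake axis. Low uptake values were not particular to the Ccr7 dendritic cells. The 6, 35 and 40 Xcr1/Clec9a cells, which had at least 2 UMIs of Xcr1 and Clec9a together and none of Ccr7, had uptake medians of 0.0847%, 0.185% and 0.297%, below the Ccr7 dendritic cells on Day 3 and above them on Days 7 and 14. Their maturation medians of 1.20%, 1.24% and 2.70% lay between those of the other sets.

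**Figure D2:**
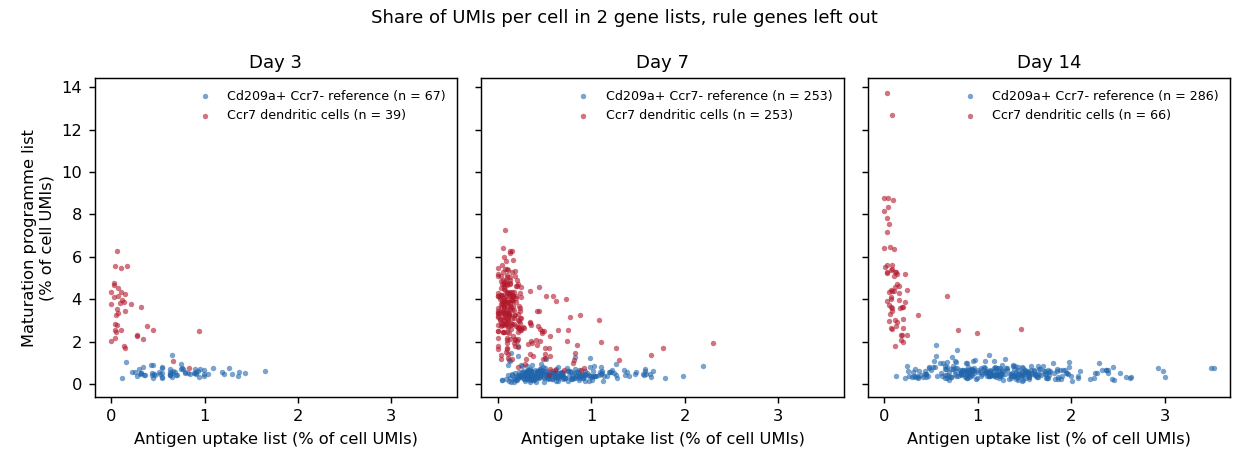
Each point is a cell, placed by the share of its UMIs (%) in the antigen uptake list (horizontal) and in the maturation programme list (vertical) for Days 3, 7 and 14, rule genes left out; red points are Ccr7 dendritic cells and blue points Cd209a cells. The red cells sit high and to the left, at vertical medians of 3.43, 3.26 and 4.31%, and the blue cells low and to the right, at 0.531, 0.427 and 0.514%.

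NF-kappaB factors carry the signal of many maturation stimuli, through a canonical arm (Nfkb1, Rel, Rela) and an alternative arm (Nfkb2, Relb). Of 21 ranked pathway genes, 6 were at least 2-fold higher (Relb, Nfkb2, Birc2, Traf1, Tnip1, Bcl2a1b) and 1 lower (Tnip3), with a median log2 ratio of 0.80. Relb was at 396, 484 and 387 CPM on Days 3, 7 and 14 against 49.1, 43.5 and 51 CPM, with log2 ratios of 3.01 (2.36 to 3.71), 3.47 (3.01 to 3.97) and 2.92 (2.49 to 3.36). Its partner Nfkb2 was at 263, 215 and 108 CPM against 130, 77.5 and 37.2 CPM. Birc2, a ubiquitin ligase that regulates the alternative arm, was at 614, 315 and 380 CPM against 45.2, 36.1 and 28.3 CPM. Of the canonical genes, Nfkb1 was at 1375, 710 and 200 CPM against 717, 348 and 353 CPM, above the Cd209a cells on Days 3 and 7 and below them on Day 14, with log2 ratios of 0.94, 1.03 and -0.82. Per cell the pathway list took 1.23%, 0.815% and 0.881% of UMIs against 0.658%, 0.353% and 0.462%.

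The promoters of these genes were searched for the kappaB decamer, the consensus of 10 letters that NF-kappaB dimers bind, on both strands from 250 bases before to 50 after each RefSeq start. A match was found in 1388 of 27025 genes (5.14%), in 200 of 2487 ranked genes with a promoter (8.04%), in 27 of 210 higher genes (12.9%) and in 19 of 263 lower genes (7.22%). In the NF-kappaB pathway list 10 of 20 genes had a match (50%): Bcl2l1, Bcl3, Nfkb2, Nfkbia, Nfkbie, Rel, Tnfaip3, Tnip1, Tnip3 and Traf3. In the maturation list it was 4 of 27 genes (14.8%): AW112010, Basp1, Epsti1 and Nfkb2. Of the 10 pathway genes with a match, only Nfkb2 and Tnip1 were at least 2-fold higher in all 3 libraries. Tnip3 was lower, and the rest were neither. A match describes letters and was not tested as a binding site. The stretches printed here belong to genes that were at least 2-fold higher in the Ccr7 dendritic cells and stand for NF-kappaB, costimulation, cytokine reception, inhibition, antigen presentation and motility, read 5′ to 3′ on the strand of the gene from RefSeq promoters of build GRCm38.p6, and the capitals mark the kappaB matches.
Nfkb2: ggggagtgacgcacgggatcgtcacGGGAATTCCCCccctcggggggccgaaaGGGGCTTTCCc
Tnip1: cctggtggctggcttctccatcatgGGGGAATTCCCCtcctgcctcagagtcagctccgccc
Tnfrsf9: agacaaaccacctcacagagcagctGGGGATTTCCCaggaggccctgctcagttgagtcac
Il2ra: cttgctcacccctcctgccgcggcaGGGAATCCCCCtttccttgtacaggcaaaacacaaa
Pdcd1lg2: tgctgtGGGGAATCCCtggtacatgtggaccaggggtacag
H2-Q7: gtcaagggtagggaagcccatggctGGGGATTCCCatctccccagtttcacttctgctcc
Mmp25: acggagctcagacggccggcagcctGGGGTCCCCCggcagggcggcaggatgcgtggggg
The Nfkb2 stretch lies at chr19:46304673-46304736 on the plus strand and holds 2 separate runs, the nearer of which ends 1 base before the start. The Tnip1 stretch lies at chr11:54962962-54963023 on the minus strand, with its match 46 bases before the start. The others lie at chr4:150927931-150927991 (Tnfrsf9, plus), chr2:11642566-11642626 (Il2ra, plus), chr19:29410669-29410709 (Pdcd1lg2, plus), chr17:35438997-35439056 (H2-Q7, plus) and chr17:23645323-23645382 (Mmp25, minus), with matches 32, 190, 234, 123 and 78 bases before the start. In Nfkb2, Tnip1, Tnfrsf9 and Il2ra a run is longer than the decamer because matches at neighbouring positions overlap.

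Of the costimulatory list 9 genes were ranked, with 2 at least 2-fold higher (Cd40, Tnfrsf9), 1 lower (Cd48) and a median log2 ratio of 0.67. Cd40, the receptor through which T cells license dendritic cells, was at 169, 94.2 and 151 CPM on Days 3, 7 and 14 against 55.0, 11.7 and 17.2 CPM. Tnfrsf9, which encodes 4-1BB and holds the kappaB run shown above, was at 632, 206 and 105 CPM against 13.7, 2.12 and 0 CPM. The B7 ligands were closer between the sets. Cd80 had log2 ratios of 0.52, 1.5 and 1.23, with the Day 3 interval (-0.08 to 1.12) including 0, and Cd86 of 0.29, 0.87 and -0.73.

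Of the inhibitory and tolerance list 6 of 9 ranked genes were at least 2-fold higher (Cd274, Pdcd1lg2, Cd200, Il4i1, Fas, Socs2) and 1 lower (Tgfb1), with a median log2 ratio of 2.60. Cd200, Il4i1 and Socs2 also belong to the maturation list. Cd274, which encodes PD-L1, was at 632, 412 and 177 CPM against 134, 30.8 and 37.9 CPM. Pdcd1lg2, which encodes PD-L2, was at 125, 81.4 and 45.9 CPM against 15.7, 9.56 and 13.8 CPM. Cd200, whose receptor restrains myeloid cells, was at 627, 263 and 157 CPM against 0, 6.37 and 8.27 CPM. All 3 ligands were lowest on Day 14. Ido1, the tryptophan-degrading enzyme of some tolerogenic dendritic cells, had no UMI in either set in any library, with upper bounds of 16.4, 4.29 and 12.1 CPM in the Ccr7 dendritic cells.

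Among chemokines 3 of 13 ranked genes other than Ccl22 were at least 2-fold higher (Ccl5, Ccl17, Cxcl16) and 4 lower (Ccl3, Ccl4, Ccl6, Cxcl10), with a median log2 ratio of -1.34. Ccl5, which attracts T cells and monocytes, was at 1455 (1302 to 1622), 688 (634 to 746) and 8472 (8149 to 8805) CPM against 23.6, 12.7 and 26.2 CPM. Ccl17, like Ccl22 a ligand of CCR4, was at 552, 490 and 236 CPM against 43.2, 55.2 and 105 CPM. Of its UMIs in the Ccr7 dendritic cells, 1 cell held 85 of 124 on Day 3 and 1 cell held 32 of 72 on Day 14. The 2-fold difference on Day 14 depended on that cell. Cxcl16, the ligand of CXCR6, was at 1455, 804 and 668 CPM against 361, 247 and 171 CPM. Ccl4 stood at 107, 205 and 22.9 CPM against 597, 799 and 207 CPM, and Ccl6 at 71.2, 205 and 75.4 CPM against 854, 548 and 756 CPM.

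Of 6 ranked chemokine receptor genes other than Ccr7, 1 was at least 2-fold higher and 3 lower, Ccr1 and Ccr2 among them, and the median log2 ratio was -1.27. Ccr2, which draws monocytes and their descendants into tissue, was at 17.8, 54.7 and 13.1 CPM against 1777, 776 and 372 CPM, with log2 ratios of -6.64 (-8.52 to -5.28), -3.83 (-4.29 to -3.40) and -4.83 (-6.71 to -3.46). A UMI of the monocyte markers Ly6c2 or Fcgr1 was found in 67.2%, 30.4% and 10.1% of the Cd209a cells. In the Ccr7 dendritic cells these shares were 7.69%, 5.93% and 6.06%. The higher gene was Gpr183, an oxysterol receptor that positions dendritic cells, at 498, 676 and 524 CPM against 149, 159 and 76.5 CPM. Cxcr4 did not differ beyond its interval on any day, with log2 ratios of -0.17 (-0.42 to 0.07), -0.27 (-0.60 to 0.04) and 0.09 (-0.44 to 0.60).

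Of 14 ranked cytokine and cytokine receptor genes 3 were at least 2-fold higher (Il12b, Il2ra, Tnfrsf11a) and 2 lower (Crlf2, Ifngr1), with a median log2 ratio of -0.14. Il12b, the p40 subunit shared by IL-12 and IL-23, was at 151, 220 and 465 CPM and had no UMI in the Cd209a cells, so that its log2 ratio was at least 4.68, 6.11 and 7.81. Its partner subunits were barely found: Il12a had no UMI in the Ccr7 dendritic cells, and Il23a had 1 UMI in all. Il2ra, the alpha chain of the IL-2 receptor, was at 347, 163 and 65.5 CPM against 0, 3.19 and 0 CPM. Il1b ran the other way, at 2981, 1530 and 803 CPM against 4409, 2300 and 2410 CPM.

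Of the genes of antigen uptake and pattern recognition 12 of 18 ranked were at least 2-fold lower and 1 higher, with a median log2 ratio of -2.34. Mrc1, the macrophage mannose receptor, was at 48.9, 208 and 39.3 CPM against 556, 592 and 868 CPM. Mgl2, a galactose-type lectin, was at 66.7, 133 and 16.4 CPM against 359, 770 and 1746 CPM, and the Fc receptor gene Fcgr2b at 156, 156 and 26.2 CPM against 440, 447 and 510 CPM. The exception was Ly75, which encodes the uptake receptor DEC-205 of mature dendritic cells, at 151, 169 and 131 CPM against 0, 1.06 and 0.689 CPM. Mgl2 and Clec10a tend to accompany Cd209a, on which the reference was chosen.

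The MHC class II list had 0 genes at least 2-fold higher and 3 of 13 lower (H2-DMa, H2-DMb1, March1), with a median log2 ratio of -0.77. H2-Eb2, described above, is not on that list. Cd74 was at 11435, 8400 and 10739 CPM against 16546, 11832 and 21015 CPM, and H2-Aa at 8000, 6579 and 9278 CPM against 10217, 8730 and 14317 CPM, so both stayed abundant. H2-DMb1, a subunit of the peptide editor, was at 236, 96.5 and 91.7 CPM against 776, 568 and 791 CPM. March1, a ubiquitin ligase that removes MHC class II from the surface, was at 0, 6.98 and 3.28 CPM against 68.7, 95.6 and 43.4 CPM.

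Of the MHC class I list 3 of 16 ranked genes were at least 2-fold higher (H2-Q7, Psme2, Nlrc5) and 1 lower (Calr), with a median log2 ratio of 0.77. H2-Q7 was at 516, 384 and 485 CPM against 43.2, 63.7 and 60.7 CPM. Nlrc5, the transactivator of class I genes, was at 62.3, 76.7 and 95 CPM against 23.6, 3.19 and 9.65 CPM. Psme2, a proteasome activator subunit, was at 721, 619 and 986 CPM against 134, 121 and 177 CPM. The class I list thus lay above the median of all ranked genes and the class II list below it.

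In the cytoskeleton and motility list 9 of 23 ranked genes other than Fscn1 were at least 2-fold higher (Marcks, Marcksl1, Basp1, Myo1g, Swap70, Cacnb3, Lsp1, Itga4, Mmp25) and 1 lower (Itgb2), with a median log2 ratio of 0.25. Swap70, an actin regulator of migrating cells, was at 690, 415 and 413 CPM against 104, 77.5 and 68.9 CPM. Mmp25, a membrane-bound metalloproteinase, was at 489, 344 and 364 CPM against 19.6, 12.7 and 24.8 CPM. Marcksl1, a membrane-linked actin regulator, was at 1548, 985 and 1065 CPM against 245, 188 and 236 CPM. Actb was at 27760, 26000 and 19106 CPM against 12122, 14219 and 10596 CPM, and its log2 ratios of 1.20, 0.87 and 0.85 reached 2-fold on Day 3 alone. The general motility genes Cdc42 and Rac1 were not at 2-fold in either direction.

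The counts of the other lists stand beside 8.5% higher and 10.6% lower of all ranked genes. Of 9 ranked interferon-stimulated genes 1 was at least 2-fold higher and 1 lower (Ifitm3), and the median log2 ratio was -0.21. Of 8 ranked survival and apoptosis genes 2 were higher, Fas among them, and 0 lower, with a median of 0.20, and of cell cycle genes 3 were ranked and none was called, with a median of 0.06.

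**Figure D3:**
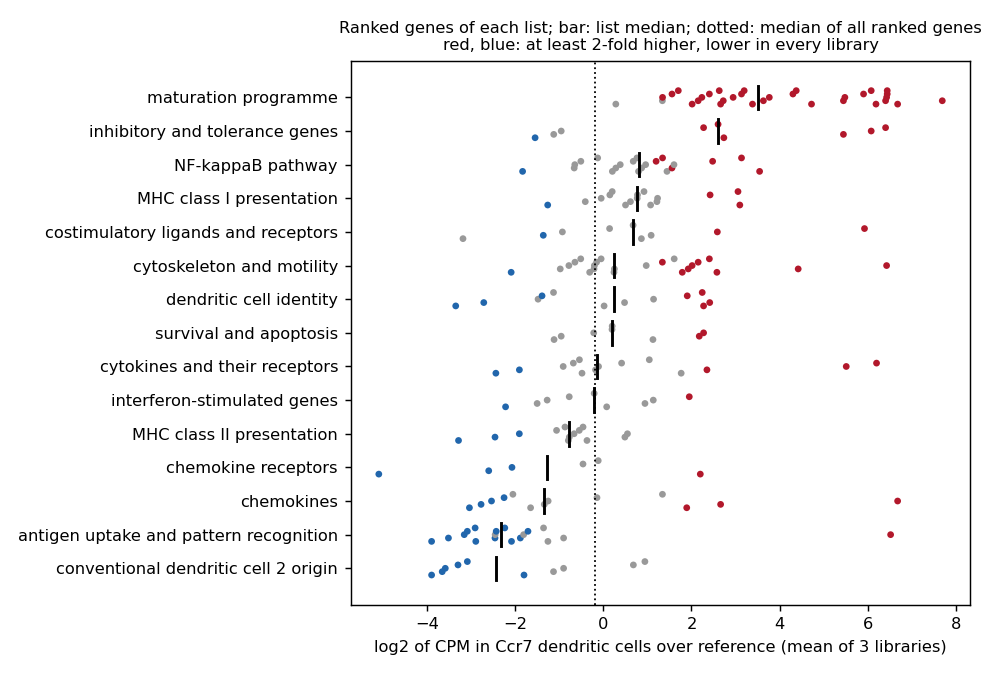
Each point is a ranked gene of a list, placed by the log2 ratio of its CPM in Ccr7 dendritic cells to that in Cd209a cells, averaged over the 3 libraries, with red and blue for genes at least 2-fold higher or lower in every library, black bars for list medians and a dotted line for the median of all ranked genes (-0.18). The list medians run from 3.51 for the maturation programme to -2.45 for the type 2 dendritic cell list.

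Marks of the parent lineage were set against the Cd209a cells, whose choice on Cd209a partly fixed the type 2 ratios. The type 1 list summed to 1486, 850 and 993 CPM on Days 3, 7 and 14 against 927, 843 and 649 CPM. Most of this sum in the Ccr7 dendritic cells was Irf8, which is also on the dendritic cell identity list, so the sum does not stand for the other type 1 genes. The type 2 list summed to 2029, 1695 and 2179 CPM against 3431, 3563 and 5133 CPM. Of 5 ranked genes of the type 1 list, 2 were at least 2-fold higher (Irf8, Batf3) and 3 lower (Wdfy4, Naaa, Ppt1), with a median log2 ratio of -1.99. Of 10 ranked genes of the type 2 list 0 were higher and 6 lower (Clec10a, Mgl2, Cd209d, Itgam, Klf4, Cd7), with a median of -2.45. Of 3 ranked Langerhans genes 1 was higher (Mfge8) and 1 lower (Cdh1), with a median of -1.18. Xcr1 was at 0, 15.1 and 0 CPM in the Ccr7 dendritic cells and at 217, 586 and 288 CPM in the 6, 35 and 40 Xcr1/Clec9a cells without Ccr7. The few Ccr7 dendritic cells with either marker numbered 0 of 39, 6 of 253 and 1 of 66. The count of 0 on Day 3 has an upper 95% bound of 9.03% for cells with such a UMI, which is not a bound for cells expressing the genes.

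The share of Ccr7 dendritic cells with any UMI of Cd209a, Clec10a or Mgl2 was 25.6% on Day 3, 17.8% on Day 7 and 12.1% on Day 14, and 15.8%, 8.8% and 6.06% after thinning each cell to 1000 UMIs. C1q-high cells, a macrophage comparison set without Ccr7 and Cd209a and with median UMIs of 4779, 3032 and 3678, had 27.1%, 23.9% and 60.0% with such a UMI and 8.66%, 11.8% and 35.2% after thinning. These were chosen without Cd209a, so their UMIs are of Clec10a and Mgl2, which macrophages can also express. The Ccr7 dendritic cells were thus below the C1q-high cells on Days 7 and 14 at either depth, and above them on Day 3 only after thinning, where 15.8% stands for 6 cells. For Cd207 or Epcam, the Langerhans markers, it was 2.56%, 1.98% and 13.6%, and after thinning 0%, 0.8% and 3.03%, beside 0%, 0.0748% and 0.503% in the thinned C1q-high cells. The Cd209a cells had 0%, 3.95% and 10.5%, and thinned 0%, 1.59% and 5.26%. The proliferation genes Mki67 or Top2a gave 10.3%, 11.5% and 16.7%, beside 5.87%, 8.40% and 10.9% in the C1q-high cells. Thinned, these were 2.63%, 4.8% and 6.06% beside 1.53%, 3.28% and 4.23%. In the Cd209a cells the values were 2.99%, 13.0% and 14.7%, and thinned 0%, 5.98% and 5.96%, so that the order of the sets differed between days. The parent lineage of most Ccr7 dendritic cells could not be read from such markers at this depth.

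Macrophage genes differed between the libraries. The summed monocyte and macrophage list stood at 538, 2933 and 1455 CPM in the Ccr7 dendritic cells on Days 3, 7 and 14, at 3535, 4787 and 3551 CPM in the Cd209a cells and at 17035, 24530 and 27736 CPM in the C1q-high cells. Of its 11 ranked genes 0 were at least 2-fold higher and 4 lower (Csf1r, Cd68, Ly6c2, Plac8), with a median log2 ratio of -1.88. On Day 7, 40.7% of the Ccr7 dendritic cells had a UMI of C1qa, C1qb or C1qc and 10.7% had 3 or more, against 7.69% and 2.56% on Day 3 and 22.7% and 4.55% on Day 14. Of the Cd209a cells 29.9%, 43.9% and 38.5% had such a UMI on Days 3, 7 and 14. The shares of Cd209a cells with macrophage and monocyte markers thus differed between days. Fibroblast genes were at like levels in every myeloid set, with 356, 2898 and 2709 CPM summed in the Ccr7 dendritic cells and 361, 3062 and 3560 CPM in the C1q-high cells, and 3 of the 8 were ranked with none called (median 0.06). These sets shared the same limit on Dcn and Col1a2, which bounds fibroblast RNA in each, so like levels were partly set by the choice of cells. The part of macrophage and fibroblast RNA in any result was not tested.

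Of the remaining marker lists, plasmacytoid dendritic cells had 2 ranked genes and none called (median 0.08), mast cells 1 ranked gene, Kit, not called (1.14), and B cells 1 ranked gene, Ighm, lower (-2.01). Mast cell Cpa3, Tpsb2 and Fcer1a had no UMI in the Ccr7 dendritic cells. No gene of the neutrophil, T and innate lymphoid, keratinocyte or endothelial and pericyte lists was ranked. The neutrophil list summed to 138, 308 and 3.28 CPM, the keratinocyte list to 13.3, 760 and 128 CPM and the endothelial and pericyte list to 44.5, 133 and 9.83 CPM. In the Day 7 keratinocyte sum, 1 cell held 98.7% of the Krt14 UMIs and 99.5% of the Krt6a UMIs.

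A UMI of Il12b was found in 6 of 39 (15.4%), 33 of 253 (13.0%) and 22 of 66 (33.3%) cells on Days 3, 7 and 14, and after thinning to 1000 UMIs in 10.5%, 8.8% and 19.7%. The C1q-high cells, with like depth, had 0%, 0.0292% and 0%. Of the 2339 genes ranked between cells with and without an Il12b UMI, 9 (0.385%) were at least 2-fold higher in all 3 libraries and 17 (0.727%) lower. Of the lists, the higher genes were Ccl5, Epsti1 and AW112010 and the lower genes Ccl17, Il1r2, Plac8 and Cd48.

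Ccl5 was at 3071, 1889 and 15305 CPM in cells with Il12b and at 1044, 511 and 4297 CPM in cells without, with log2 ratios of 1.56 (1.23 to 1.88), 1.89 (1.64 to 2.13) and 1.83 (1.71 to 1.95). Epsti1, an interferon-inducible gene, was at 417, 687 and 2522 CPM against 156, 164 and 818 CPM. AW112010, also inducible by interferon, was at 241, 642 and 1365 CPM against 39.1, 115 and 554 CPM. Ccl17 ran the other way, at 132, 226 and 17.3 CPM against 659, 528 and 369 CPM, with log2 ratios of -2.32 (-3.80 to -1.16), -1.23 (-1.87 to -0.64) and -4.42 (-7.49 to -2.51). Cells with Il12b were deeper on Days 3 and 14, with median UMIs of 7114, 3129 and 5126 against 5024, 3118 and 3932. On Day 3, 1 cell held 85 of the 124 Ccl17 UMIs (68.5%), and a Ccl17 UMI was found in 66.7% of cells with Il12b and 12.1% of those without, the reverse of the CPM. Without the cell highest in each gene in each library, the log2 ratios of Ccl17 were -0.57 (-2.11 to 0.71), -1.08 and -3.57, those of Ccl5 were 0.81 (0.39 to 1.21), 2.34 and 1.48, those of Epsti1 0.18 (-1.26 to 1.41), 1.66 and 1.52, and those of AW112010 0.96 (-1.62 to 3.09), 2.26 and 1.16. On Day 3 none of the 4 genes was then 2-fold apart, and on Days 7 and 14 each still was. Of the other genes, Il1r2 then had -0.67 on Day 14, Plac8 -0.82 on Day 7 and no ratio on Day 14, where 1 cell had held 66.7% of its UMIs, and Cd48 -0.81 on Day 14. None of the 7 genes was thus 2-fold apart in every library without its highest cells. With all cells, the Day 14 interval of Il1r2 and Plac8 and the interval of Cd48 on each day included 0, and without the highest cells that of Il1r2 on each day and that of Plac8 on Day 7 did so too.

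**Figure D4:**
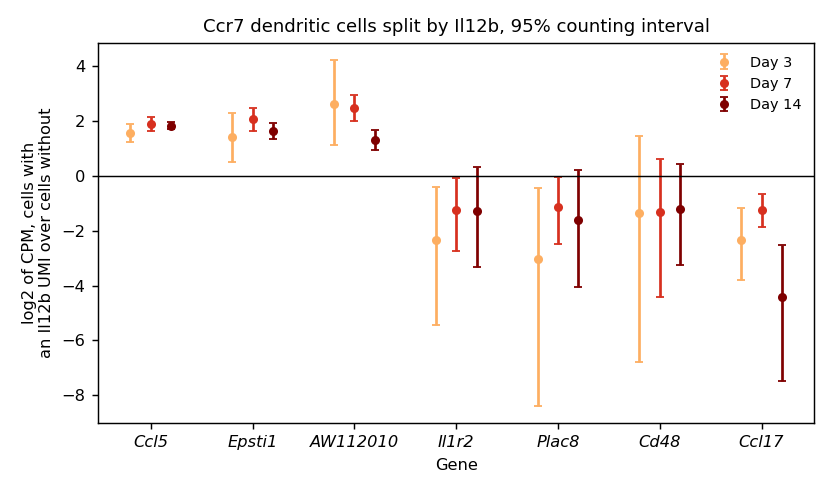
Log2 ratio of CPM in Ccr7 dendritic cells with an Il12b UMI (6, 33 and 22 cells) over those without, for the 7 list genes at least 2-fold apart in the same direction in all 3 libraries, with 95% counting intervals as bars and colours for days. Ccl5 lies between 1.56 and 1.89 and Ccl17 between -4.42 and -1.23, and all intervals of both exclude 0, although on Day 3 neither reached 2-fold without its highest cell, and none of the 7 genes did so in every library.

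Between Day 7 and Day 14, 2819 genes were ranked in the Ccr7 dendritic cells. Of these 174 (6.17%) were at least 2-fold higher on Day 14 and 376 (13.3%) at least 2-fold lower, around a median log2 ratio of -0.08. Each day was 1 library, and the day and the library could not be told apart. The Cd209a cells of the same libraries, had a median of -0.06.

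For Ccl5 the log2 ratio between these days was 3.62 (3.49 to 3.75) in the Ccr7 dendritic cells, 1.04 in the Cd209a cells and 0.34 in the C1q-high cells. It was found in 68.2% of Ccr7 dendritic cells on Day 14 against 37.9% on Day 7, the highest cell held 17.1% of the Day 14 UMIs, and without the highest cell of each day the ratio was 3.65. The level was also 1455 CPM on Day 3, so Day 7 was the lowest of the 3 days. In the Xcr1/Clec9a cells Ccl5 stood at 0, 6.74 and 82.3 CPM.

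Other genes of the maturation list were also higher on Day 14. Of 34 ranked, 9 were at least 2-fold higher and 2 lower (Fabp5, Ccl17), with a median log2 ratio of 0.56 against 0.23 in the Cd209a cells. Epsti1 was at 209.1, 231 and 1464 CPM on Days 3, 7 and 14, Apol7c, an apolipoprotein L family gene, at 26.7, 149 and 747 CPM, and AW112010 at 80.1, 183 and 862 CPM. Cst3, the cysteine protease inhibitor cystatin C, was at 4952, 5128 and 12266 CPM in the Ccr7 dendritic cells, and at 9369, 11199 and 24919 CPM in the Xcr1/Clec9a cells. Fabp5 had a log2 ratio of -1.72 (-1.83 to -1.62).

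Of 8 ranked inhibitory and tolerance genes 1 was at least 2-fold higher on Day 14 (Socs1) and 1 lower (Cd274), with a median log2 ratio of -0.68 against 0.34 in the Cd209a cells. Of 13 ranked chemokines other than Ccl22, 2 were higher (Ccl5, Ccl8) and 7 lower, with a median of -1.05 against 0.47, but 1 cell held 86.3% of the Day 14 UMIs of Ccl8, and without the highest cell of each day its ratio turned from 1.12 to -1.41 (-2.33 to -0.60). Nfkb1 had a log2 ratio of -1.83 (-2.23 to -1.45), Cd274 of -1.22 (-1.66 to -0.80), Il2ra of -1.31 (-2.07 to -0.63), Cd86 of -1.37 (-1.96 to -0.82) and Ccl17 of -1.05 (-1.43 to -0.69). Without the highest cell of each day the ratio of Ccl17 was -1.75 (-2.25 to -1.27). In the Cd209a cells the ratios of Nfkb1, Cd274, Cd86 and Ccl17 were 0.02, 0.30, 0.24 and 0.93, with too few UMIs for Il2ra. Il12b was higher, at 1.08 (0.76 to 1.40). In the NF-kappaB list 0 of 22 ranked genes were higher and 3 lower, with a median of -0.39, and in the MHC class I list 4 of 17 were higher and 1 lower, with a median of 0.67. Of all ranked genes 6.17% were higher and 13.3% lower. The lower counts of the NF-kappaB and inhibitory lists lay near that share. The uptake list had 9 of 12 genes lower and a median of -2.05, against 0.55 in the Cd209a cells. Its Mrc1 had a ratio of -2.40, and of -1.59 without cells that carried UMIs of other cell types. The summed macrophage markers of the Ccr7 dendritic cells, given above, were highest on Day 7, and their part in the uptake values was not tested.

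The genes with the highest ratios differed in how many cells carried them. Igfbp3, an IGF carrier, had a log2 ratio of 5.05 on 47 UMIs in 4 cells of Day 14, with 55.3% in 1 cell, and of 4.36 in the Cd209a cells and 2.91 in the C1q-high cells. Clu, a secreted chaperone, was at 66.7, 17.4 and 321 CPM and its ratio was 4.20 (3.41 to 5.09), the Day 3 level coming from 15 UMIs in 1 cell. H2-M2, an MHC class I-like gene, was at 0, 39.5 and 544 CPM with a ratio of 3.78, which was at least 2.60 in the Cd209a cells and 4.10 in the C1q-high cells. On Day 14 Clu had UMIs in 20 cells and H2-M2 in 27. 2610528A11Rik (3.70), Ndnf (3.22), Asprv1 (3.13) and Dusp14 (3.08) followed. Their Day 14 UMIs lay in 6, 22, 8 and 11 cells, and for 2610528A11Rik and Dusp14 1 cell held 60.9% and 51.5% of them. The Cd209a and C1q-high cells had 1.6 and 3.17 for Ndnf and -1.21 and 1.91 for Asprv1, and the C1q-high cells 1.06 for Dusp14.

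At the low end, Ifitm1, an interferon-inducible membrane gene, was at 538, 824 and 16.4 CPM, with a log2 ratio of -5.65 (-7.28 to -4.42), and it was -6.01 in the Cd209a cells. S100a8, Arg1, Fabp4 and B4galt1 each had 1 UMI on Day 14. Their ratios were -4.85 (-10.17 to -2.33), -4.79 (-10.11 to -2.27), -4.95 (-10.27 to -2.43) and -4.79 (-10.11 to -2.27). In the Cd209a cells S100a8 and Arg1 had no UMI on Day 14 and ratios of at most -5.97 and -4.97, and Fabp4 and B4galt1 had ratios of -0.68 and -0.90. Krt16 (-4.66), Krt6a (at most -4.62) and Krt17 (-4.19) rested on 1 cell of Day 7 that held 100%, 99.5% and 99.0% of their UMIs, and without it no ratio could be given.

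**Figure D5:**
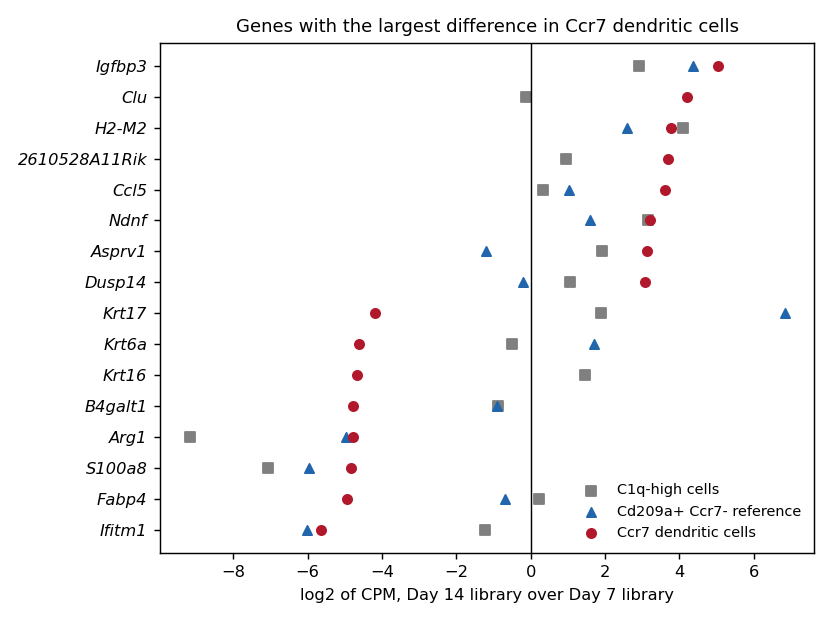
Log2 ratio of CPM on Day 14 over Day 7 for the 8 genes highest and the 8 lowest in Ccr7 dendritic cells (red circles), with the Cd209a cells (blue triangles) and C1q-high cells (grey squares) where a ratio could be given; a set without a UMI on a day was taken at 3 counts. Ccl5 lies at 3.62, 1.04 and 0.34 in the 3 sets, whereas Igfbp3, H2-M2 and Ndnf are high in all of them and the keratin genes at the low end rest on 1 cell.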

How the data were processed

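Cells were dissociated from pooled wounds by the authors and captured unsorted with the Chromium 3′ kit, chemistry 3.1. The deposited matrices hold raw UMI counts per gene and barcode, made by the authors with Cell Ranger 6.0.0 on build mm10, per the submitters' processing notes; the annotation is not given in the sources used here. Of 32285 gene IDs, 32158 had a symbol, and 379 of 382 list genes were found. The sets were formed as in the report, and barcodes outside the quality limits were left out, of which 3 of 706, 2 of 1356 and 0 of 2139 on Days 3, 7 and 14 met the other limits. UMIs were summed per set and library, scaled to CPM, and given exact Poisson, conditional binomial (ratios) or Clopper-Pearson (shares) intervals at 95%. A set at 0 was taken at 3 counts over the set, which makes the ratio a bound. UMIs are molecules, but intervals cover counting error only.

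A gene was called when it was at least 2-fold apart in the same direction in all 3 libraries, and between days when it was at least 2-fold apart with at least 50 CPM on either day and at least 10 UMIs over both days together. Genes were named from 28 lists (rule genes included), from the 10 highest and 10 lowest of the comparison with the Cd209a cells by the smallest ratio, and from the 8 highest and 8 lowest between days, without mitochondrial, ribosomal protein and Gm42418 genes. Some genes of the lists are not reported here. The cells and the lists were chosen with earlier results of these data known. The split by Il12b, the shares per cell and the ratios without the highest cell were added after values were seen. Doublets were scored against simulated ones (50 neighbours, 30 components, 2000 genes) and kept, with removal as an alternative. The cells with the highest scores were called, 92, 1978 and 962 of them, a number set in advance from the number of barcodes. Intervals and calls were run on Poisson counts simulated per set. That simulation had no spread between cells and did not include the summing of UMIs, so it says nothing on either. Promoters of 27025 genes came from RefSeq (GRCm38.p6). Python 3.11.15, numpy 2.4.6, scipy 1.17.1, pandas 2.3.3, scikit-learn 1.9.0 and matplotlib 3.10.9 were used.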

Additional observations from a re-analysis of the deposited data

Results flagged for a closer look

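For 3 genes, the ratio of Ccr7 dendritic cells to Cd209a cells was at least 2-fold in opposite directions in different libraries, and the difference between libraries was not tested. Ccl2, a ligand of CCR2, had a log2 ratio of 1.01 on Day 7 and of -2.86 and -2.17 on Days 3 and 14. On Day 7, 1 cell held 23 of its 92 UMIs, and without the highest cell the ratio was 0.61 (0.06 to 1.16), no longer 2-fold. Ccrl2, an atypical chemokine receptor gene, had 1.07 on Day 14 (0.91 without the highest cell) and -1.43 and -1.03 on Days 3 and 7. Rsad2, an interferon-stimulated gene, had 2.51 on Day 14 and -3.11 on Day 3, and of its 12 UMIs in the Ccr7 dendritic cells of Day 14, 6 came from 1 cell, without which the ratio was 1.54 (-0.21 to 3.14).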

How the results depend on the processing

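The share of kept cells on Day 7 was 1.02% without cells carrying UMIs of other cell types, 0.835% under a stricter limit (2 UMIs of Ccr7 and 5 of Ccl22 and Fscn1) and 1.35% among cells with at least 2000 UMIs, where Day 3 was 1.21%. With each library left out, the genes higher than in the Cd209a cells numbered 308 to 336 and the lower ones 393 to 455. A gene then had to be 2-fold apart only in the libraries left, a looser rule that raises the counts by itself. A minimum of 100 CPM gave 202 lower genes. Between days, a minimum of 20 CPM gave 375 higher and 914 lower genes and one of 100 CPM gave 101 and 158. Thinning to 2000 UMIs in place of 1000 gave, over all libraries, shares of 15.0% for type 2 (9.04% at 1000), 3.26% for Langerhans (1.13%), 21.5% for macrophage (16.7%), 2.61% for keratinocyte (0.847%) and 2.93% for monocyte markers (1.13%) and 21.8% for Ccl17 (15.3%).

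For the named genes, 1993 values against the Cd209a cells stayed within the spread between libraries or interval used, 58 moved and 0 reversed, and between days 997, 36 and 4. Values with a library left out or with another CPM minimum could not have moved, because they reuse the same ratios. They numbered 114 in each such setting against the Cd209a cells and 87 with each CPM minimum between days. The reversed ones were Ccl8 (1.12, but -0.86 without called doublets and -0.49 without cells carrying UMIs of other cell types) and Krt14 (-3.78, but 2.26 without those cells and 2.51 under the stricter limit). On Day 14, 1 cell held 86.3% of the Ccl8 UMIs, and without the highest cell of each day its ratio was -1.41 (-2.33 to -0.60). On Day 7, 1 cell held 98.7% of the Krt14 UMIs. The comparison with the Cd209a cells was made within each of the 3 libraries and was given no test, since the choice of cells set it. Between days, no paired analysis was possible because each day is 1 library.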
